A study of Mus musculus with 3 samples.

Results

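The respiratory chain of the inner mitochondrial membrane passes electrons from NADH and succinate to oxygen, and ATP synthase uses the proton gradient that this builds. Most subunits of complex I, complex IV and ATP synthase are encoded in the nucleus and are built together with a few subunits encoded by mitochondrial DNA. Complex IV, cytochrome c oxidase, is the last enzyme of the chain, and several of its small subunits have a form made in most tissues and another made in heart and skeletal muscle. The genes described here were those whose symbols mark subunits of complexes I to IV (Ndufa, Ndufb, Ndufc, Ndufs, Ndufv, Sdh, Uqcr and Cox4 to Cox8), cytochrome c (Cycs) or ATP synthase (Atp5). By its letters the Ndufa pattern also takes the assembly factors named Ndufaf. This gave 34 genes with 41 RefSeq transcripts, of 10761 named genes and 16383 transcripts in all. The same name rule finds 97 protein-coding mouse genes in RefSeq (GRCm38.p6), and the others, among them all genes of complexes II and III, were not analysed here.

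The data were RNA sequencing of whole mouse lung from 3 libraries. DKO 1 and DKO 2, the libraries labelled as double knockouts of Lin28a and Lin28b, came from lungs in which tamoxifen had induced recombination of a loxP-flanked exon 2 by NKX2.1creERT, a Cre described as specific to the epithelium. A single library, WT, was labelled wild type, and the strain of all was C57BL/6J on a mixed background. Age, sex and the number of animals behind each library were not given in the sources used here, nor whether the WT lung had been exposed to tamoxifen, so the spread between the DKO libraries may be partly technical. By its title, the study concerned lung branching and epithelial differentiation without these RNA-binding proteins. Values are RPKM, read numbers scaled to transcript length and library depth. Levels of different genes within a library can thus be set side by side, but not every level is sound. Gapdh, a gene used by nearly every cell, had 0.115 RPKM in DKO 1 and 0.185 in DKO 2, against 0.0144 in WT. A low value above 0 can thus also be a failed estimate, and comparisons between genes are descriptions. Approximate depths, read off the smallest steps between values, were 30700000 reads in DKO 1 and 34200000 in DKO 2, against 48700000 in WT.

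In these lungs the small subunits of the chain were among the most abundant transcripts, and on the log2(RPKM + 1) scale used for testing the largest differences from WT in DKO 1, and over both DKO libraries, were those of Cox6a1 and Cox8a, which encode small complex IV subunits. In DKO 2 alone Cox4i1 and Ndufaf6 stood further above WT than both, and Cox7a1 further than Cox8a. Cox6a1 stood 9.33-fold above WT in DKO 1 and 2.83-fold above WT in DKO 2, and Cox8a 10.6-fold and 2.47-fold. The other complex IV subunits common to most tissues did not share this: Cox4i1, Cox5a and Cox5b were below WT in DKO 1 and above it in DKO 2, while Cox7a2 and Cox7c were above WT in both by less than 2-fold. No respiratory chain or ATP synthase gene passed limma's test with Benjamini-Hochberg adjustment over all transcripts tested, where 0.0968% of the 2066 passed. At an unadjusted limma p under 0.05, 2 of the 23 tested passed, Cox6a1 and Cox8a, against 3.19% of all transcripts tested. The genes described were chosen with earlier results of these data known, so this comparison is a description and not a test.

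The 3 libraries differed in more than genotype. Of the targeted genes, Lin28b was at 0.187 RPKM in DKO 1 and 0.590 in DKO 2, against 0.449 in WT, and Lin28a was not analysed here. Lin28b thus did not separate the groups, and since only exon 2 was deleted in epithelial cells, a value over the whole transcript is a weak check of the labels. Y-linked genes summed to 22.3 RPKM in DKO 1 and 8.11 in DKO 2 and were listed at 0 in WT, so sex and genotype cannot be told apart. Erythroid markers summed to 28714 RPKM in DKO 1 and 102775 in DKO 2, against 20202 in WT, and Hbb-y, an embryonic globin gene, made up most of each sum. Leukocyte markers summed to 473 RPKM in DKO 1 and 239 in DKO 2, against 84.3 in WT, although Ptprc and S100a9 of that list were listed at 0 in all. Of its 8 tested genes, 6 were above WT in both DKO libraries. The other 2, C1qc and Fcer1g, were above WT in DKO 1 and below it in DKO 2. In DKO 2 C1qc had 0.111 RPKM against 9.43 in WT, and Fcer1g 35.9 against 42.5. Liver markers summed to 11.4 RPKM in DKO 1 and 183 in DKO 2, against 7.54 in WT, and so set DKO 2 apart. Lung epithelial markers summed to 26.6 RPKM in DKO 1 and 35.8 in DKO 2, against 406 in WT. Sftpc made up most of the WT sum, with 7.55 RPKM in DKO 1 and 0.0364 in DKO 2, against 369 in WT. The other tested markers of this list did not all fall. Krt19 had 6.17 RPKM in DKO 1 and 9.11 in DKO 2, against 3.08 in WT. Krt18 was below WT in DKO 1 and above it in DKO 2, while Epcam and Foxa1 were below WT in both. Nkx2-1 and Sftpb had a value of 0 in all 3 libraries. In whole lung, fewer cells of a type and less RNA per cell cannot be told apart. The part that any of these differences played in the values below was not tested, except where a value is given.

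Of the 41 transcripts, 23, each of a different gene, averaged 1 RPKM or more across the libraries and were tested. A further 16 were listed at 0 in all 3 libraries, and they covered every transcript of 10 genes: Ndufs1, Ndufs5, Ndufs6, Ndufs8, Ndufv2, Ndufv3, Cox6b2, Cox7a2l, Cox8c and Atp5c1. Of these 16, 13 belonged to genes with more than 1 RefSeq transcript, and the other 3 were Ndufs5, Ndufs6 and Cox8c. Cox6b2 and Cox8c are testis forms, but the Nduf genes and Atp5c1 are used by nearly every cell, so a value of 0 can be a failed estimate and is not read as silence. Ndufa4l2, a relative of Ndufa4, was listed at 0.101 RPKM in DKO 1 and at 0 in DKO 2 and WT.

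The 23 tested transcripts were short, with a median length of 659 bases against 2407 bases over all transcripts tested. Together with the low ones they made up 21.3% of the summed RPKM of DKO 1 and 18.5% of that of DKO 2, against 19.4% in WT. By level in WT, Cox7c held rank 4 of the 2066 transcripts tested, Ndufa4 rank 5, Atp5k rank 6, Atp5l rank 9, Ndufa2 rank 10 and Cox7a2 rank 11. Cox6a1 held rank 13 in DKO 1 and 45 in DKO 2, against rank 82 in WT. Cox8a held rank 18 in DKO 1 and 70 in DKO 2, against rank 106 in WT. Thus both moved up the order of abundance in each DKO library, and in DKO 1 they stood among the 18 most abundant transcripts.

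**Figure D1:**
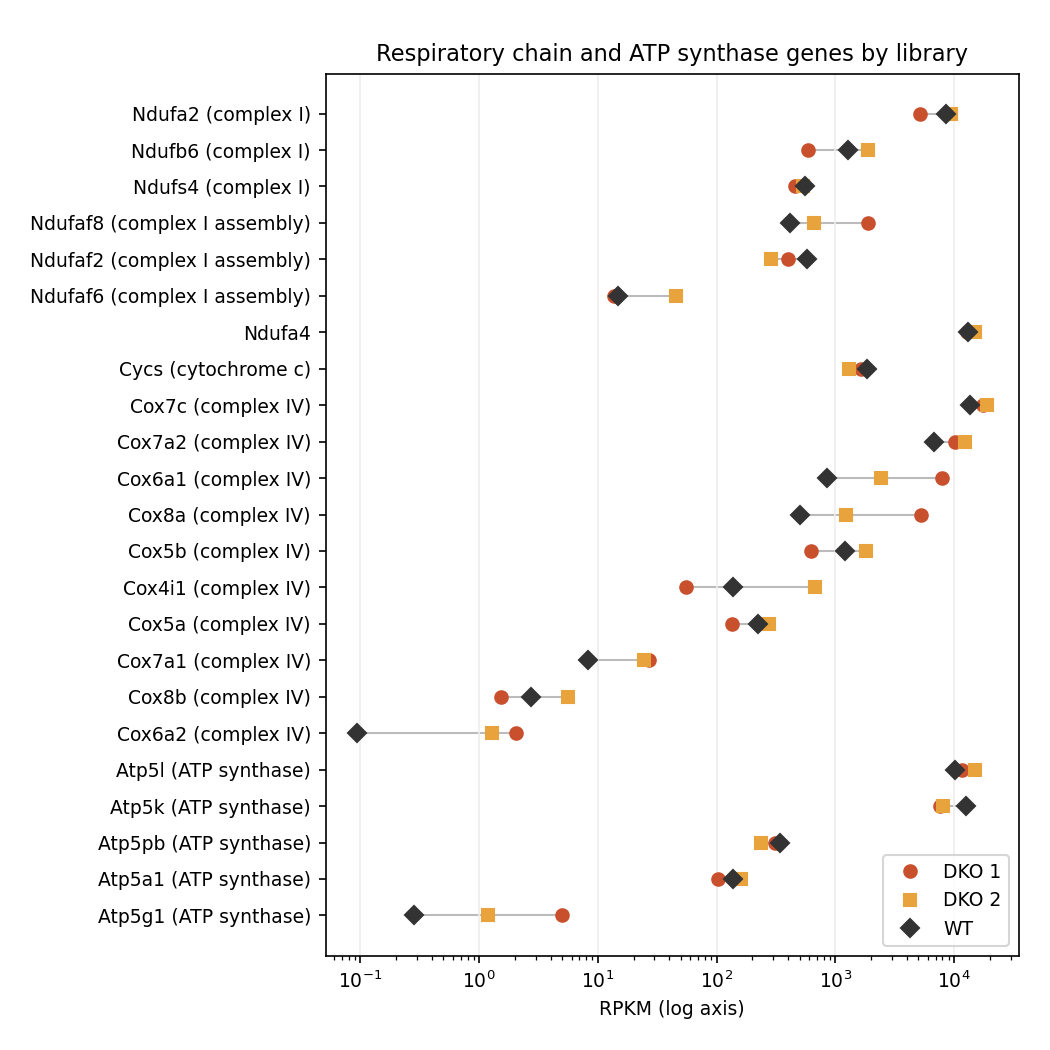
RPKM of the 23 tested genes in DKO 1, DKO 2 and WT on a log axis, grouped by complex, with 1 point per library and a grey line over their range. Cox6a1 and Cox8a run in the order DKO 1, DKO 2, WT from high to low, whereas Cox4i1, Cox5a, Cox5b and Ndufb6 have DKO 2 highest and DKO 1 lowest.

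Relative to WT the genes went several ways. Both DKO libraries were above WT for 9 of 23, where 32.1% of all transcripts tested lay above WT in both. Both were below WT for 5 of 23, against 31% of all. For 9 of 23 DKO 1 was below WT and DKO 2 above it, against 19.4% of all transcripts, and for 0 of 23 DKO 1 was above and DKO 2 below, against 16.9% of all. The median difference over the 23, on the log2(RPKM + 1) scale, was -0.14 in DKO 1 and 0.58 in DKO 2, and over all transcripts tested it was -0.01 in DKO 1 and 0.04 in DKO 2. At least 2-fold above WT in both DKO libraries on that scale were 4 of 23, namely Cox6a1, Cox8a, Cox7a1 and Cox6a2, where 3.87% of all transcripts passed the same rule. All 4 are of complex IV, but this depends on the scale. With a pseudocount of 0.1 the count was 5, with Atp5g1 of ATP synthase added. With the GC trend removed it was 2, Cox6a1 and Cox7a1, and with a filter at 5 RPKM it was 3. Cox6a2 averaged 1.14 RPKM, with 0.0935 RPKM in WT, so its DKO values carried it past the filter at 1 RPKM. The 3.87% belongs to the settings used for testing. Since the genes were chosen with earlier results known, these counts are descriptions. None of the 23 was at least 2-fold below WT in both, a rule that 1.6% of all passed.

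**Figure D2:**
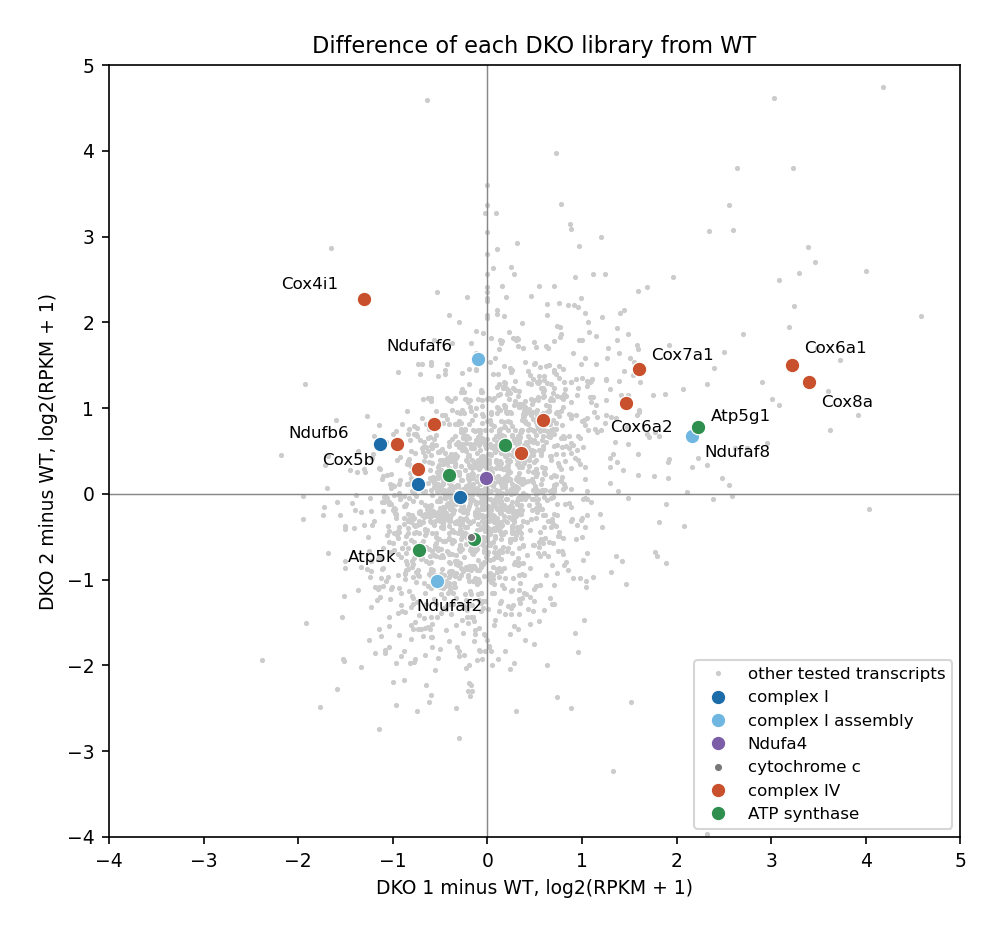
Difference of DKO 1 from WT (horizontal) against that of DKO 2 from WT (vertical), both on the log2(RPKM + 1) scale, for the 23 tested genes, coloured by complex, and for the other tested transcripts in grey, of which 5 lie beyond the axes. Both axes share WT, so points on the diagonal are not independent evidence. Cox6a1 and Cox8a lie far to the right at 3.22 and 3.40, and Cox4i1 lies upper left at -1.30 and 2.27.

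Complex I takes electrons from NADH, and 3 of its subunit genes were tested. Ndufa2, an accessory subunit of the matrix arm, had 5222 RPKM in DKO 1 and 9376 in DKO 2, against 8653 in WT. Ndufb6, an accessory subunit of the membrane arm, had 584 RPKM in DKO 1 and 1905 in DKO 2, against 1276 in WT. Both genes had DKO 1 lowest and DKO 2 highest, with WT between, so the groups overlapped. Ndufs4, an accessory subunit whose loss in mice is used as a model of Leigh syndrome, had 454 RPKM in DKO 1 and 538 in DKO 2, against 553 in WT. Both DKO libraries were below WT, with log2 differences of -0.29 in DKO 1 and -0.04 in DKO 2, so DKO 2 and WT were nearly level. The median log2 difference of the 3 was -0.73 in DKO 1 and 0.12 in DKO 2, and 0 of 3 passed limma. A share of 39% of the exon bases of Ndufb6 also lies in Smim27 on the opposite strand, and whether the counting used strand is not given in the sources used here, so its level is uncertain. For Ndufa2 the share was 11.5%, in Tmco6 on the opposite strand.

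The assembly factors help to build complex I without staying in it. Ndufaf8, a partner of the assembly factor Ndufaf5, had 1872 RPKM in DKO 1 and 666 in DKO 2, against 417 in WT. It was thus above WT in both, 4.49-fold in DKO 1 and 1.60-fold in DKO 2, and the DKO libraries differed from each other by more than DKO 2 differed from WT (log2 difference 1.42, SE 0.84, limma adjusted p = 0.999). Ndufaf6 had 13.7 RPKM in DKO 1 and 45.9 in DKO 2, against 14.7 in WT. Only DKO 2 stood apart there, at 3.11 times WT. Ndufaf2, a relative of the subunit Ndufa12, had 401 RPKM in DKO 1 and 286 in DKO 2, against 582 in WT. Both DKO libraries were below WT (log2 difference -0.78, SE 0.79, limma adjusted p = 0.999), but 65.6% of the exon bases of Ndufaf2 are shared with the long noncoding RNA gene B230220B15Rik on the opposite strand.

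Ndufa4, named as a complex I subunit and later placed in complex IV, had 12963 RPKM in DKO 1 and 14934 in DKO 2, against 13082 in WT. It was close to WT, with ratios to WT of 0.991 in DKO 1 and 1.14 in DKO 2. Cycs, which carries electrons from complex III to complex IV and triggers apoptosis when released, had 1657 RPKM in DKO 1 and 1318 in DKO 2, against 1865 in WT. Both DKO libraries were below WT, by a log2 difference of -0.17 for DKO 1 and -0.50 for DKO 2, and Cycs did not pass limma. The DKO libraries again differed from each other by more than DKO 1 did from WT.

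In complex IV, the subunits made in most tissues divided into 3 patterns. The values of Cox6a1 (chromosome 5, 115345652 to 115348958 on GRCm38, NM_007748) were 7938 RPKM in DKO 1 and 2411 in DKO 2, against 851 in WT. Those of Cox8a (chromosome 19, 7215158 to 7217616, NM_007750) were 5302 RPKM in DKO 1 and 1241 in DKO 2, against 503 in WT. DKO 1 was the highest and WT the lowest for both genes, and the groups did not overlap. The log2 difference between DKO and WT was 2.36 for Cox6a1 (SE 0.81, limma adjusted p = 0.999) and 2.35 for Cox8a (SE 0.89, limma adjusted p = 0.999), higher in 2 of 2 DKO libraries. Over 10 alternatives the lowest limma adjusted p was 0.142 for Cox6a1 and 0.236 for Cox8a, both with a filter at 5 RPKM, and the highest was 0.999. With DKO 1 left out the difference of Cox6a1 was 1.50 and that of Cox8a 1.30, and with DKO 2 left out they were 3.22 and 3.40, so DKO 1 carried most of both.

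Counting error was small beside the gap between the DKO libraries. Cox6a1 rested on about 139031 reads in DKO 1 and 47032 in DKO 2, against 23636 in WT, and its ratio to WT had a 95% exact binomial interval of 9.2 to 9.46 in DKO 1 and 2.79 to 2.88 in DKO 2. For Cox8a the intervals were 10.4 to 10.7 in DKO 1 and 2.42 to 2.52 in DKO 2. These intervals cover counting error only, since reads copied by PCR are not independent molecules, and the read numbers are approximate. DKO 1 exceeded DKO 2 by 3.29-fold for Cox6a1 and by 4.27-fold for Cox8a, so within the DKO group these genes varied more than DKO 2 differed from WT. The ratio of Cox6a1 to Cox8a differed little between libraries, at 1.50 in DKO 1 and 1.94 in DKO 2, against 1.69 in WT.

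Cox4i1, a subunit that joins the complex early in its assembly, had 55.4 RPKM in DKO 1 and 673 in DKO 2, against 138 in WT. Among the 23 it showed the widest gap between DKO libraries, with DKO 2 at 12.1 times DKO 1. It has 2 RefSeq transcripts, and 9.94% of its exon bases are shared with Emc8 on the opposite strand. Cox5a, which also joins early, had 135 RPKM in DKO 1 and 275 in DKO 2, against 225 in WT. A share of 12.8% of its exon bases lies in Gm26631 on the opposite strand. Cox5b, a zinc-binding subunit, had 630 RPKM in DKO 1 and 1815 in DKO 2, against 1217 in WT. All 3 genes had DKO 1 below WT and DKO 2 above it. Their log2 differences over both libraries were 0.48, -0.22 and -0.19, each smaller than its SE. Cox7c had 17428 RPKM in DKO 1 and 18985 in DKO 2, against 13616 in WT, and Cox7a2 had 10230 RPKM in DKO 1 and 12319 in DKO 2, against 6805 in WT. Apart from Ndufa4 these were the 2 most abundant subunits, and both genes were above WT in both DKO libraries with DKO 2 highest. The log2 difference was 0.42 (SE 0.58) for Cox7c and 0.72 (SE 0.61) for Cox7a2, and neither passed limma.

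Set against the other complex IV subunits of the same library, Cox6a1 and Cox8a stood out in DKO 1. The 8 others with a value above 0 everywhere, Ndufa4 not counted, had a median of 95.3 RPKM in DKO 1 and 474 in DKO 2, against 181 in WT. Cox6a1 was at 83.3 times that median in DKO 1 and 5.09 times in DKO 2, against 4.69 times in WT. Cox8a was at 55.7 times that median in DKO 1 and 2.62 times in DKO 2, against 2.77 times in WT. By this measure DKO 2 was close to WT for both genes. The 8 include 3 muscle isoforms at low levels. Without these, an alternative added after the data were seen, Cox6a1 was at 12.6 times the median of the remaining 5 in DKO 1 and 1.33 times in DKO 2, against 0.699 in WT. Cox8a was then at 8.42 times in DKO 1 and 0.684 times in DKO 2, against 0.413 in WT. Against the mean of the 8 others, Cox6a1 was at 2.23 times in DKO 1 and 0.566 times in DKO 2, against 0.309 in WT, and Cox8a at 1.49 times in DKO 1 and 0.291 times in DKO 2, against 0.183 in WT. Against the median of the 22 other tested genes of the respiratory chain and ATP synthase, Cox6a1 was at 18.6 times in DKO 1 and 4.01 times in DKO 2, against 1.75 in WT, and Cox8a at 12.4 times in DKO 1 and 2.06 times in DKO 2, against 1.04 in WT. DKO 1 was thus above WT by all 4 measures, and DKO 2 was above WT by all but the median of the 8 others, where it was level for Cox6a1 and slightly lower for Cox8a.

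**Figure D3:**
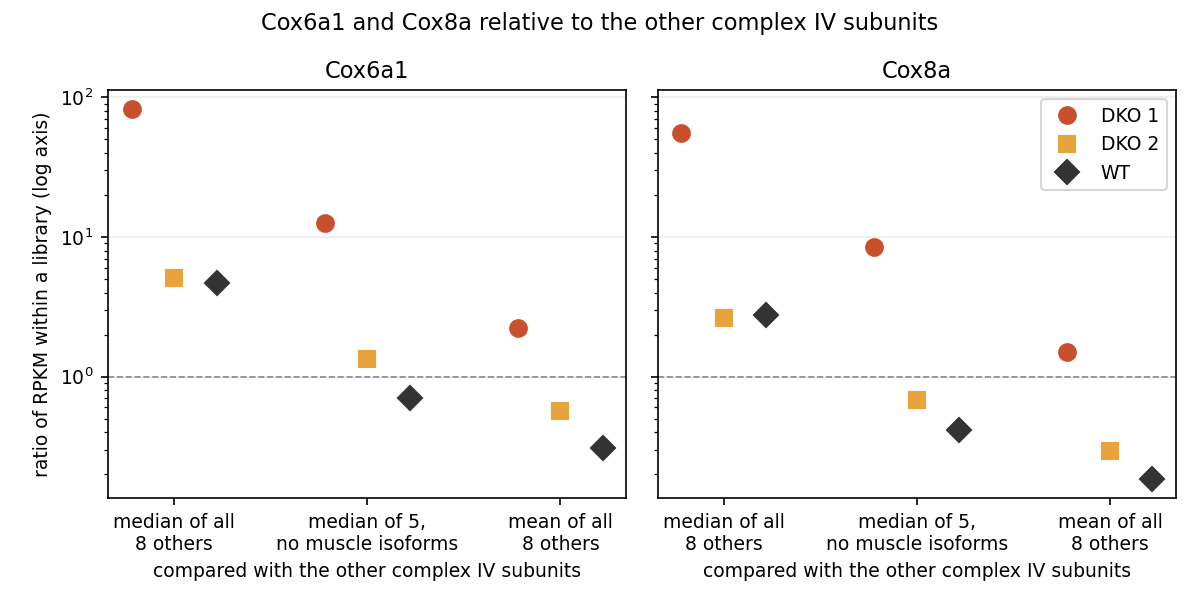
Ratio of the RPKM of Cox6a1 (left) and Cox8a (right) to that of the other complex IV subunits in the same library, on a log axis, with 1 point for each of DKO 1, DKO 2 and WT and a dashed line at an even ratio. Against each denominator DKO 1 is the highest, while the order of DKO 2 and WT depends on the denominator for Cox8a.

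The promoters of Cox6a1 and Cox8a are shown with those of Ndufaf8, which had the same order of libraries, and of Cox5b, which had DKO 1 lowest, so that genes that differed in opposite directions in DKO 1 can be read side by side. Each is the 250 bases before the RefSeq start on GRCm38.p6, written 5' to 3' on the gene's strand, and capitals mark matches on either strand to a motif. The motifs searched were GCATGCG for NRF1 and CCGGAAG for ETS factors such as GABP, both regulators known for respiratory chain genes, GGGCGG for SP1, CCAAT for NF-Y and AAGATGG for YY1. The windows are chr5:115348959-115349208 on the minus strand for Cox6a1, chr19:7217617-7217866 on the minus strand for Cox8a, chr11:120098684-120098933 on the plus strand for Ndufaf8 and chr1:36691237-36691486 on the plus strand for Cox5b.

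Cox6a1: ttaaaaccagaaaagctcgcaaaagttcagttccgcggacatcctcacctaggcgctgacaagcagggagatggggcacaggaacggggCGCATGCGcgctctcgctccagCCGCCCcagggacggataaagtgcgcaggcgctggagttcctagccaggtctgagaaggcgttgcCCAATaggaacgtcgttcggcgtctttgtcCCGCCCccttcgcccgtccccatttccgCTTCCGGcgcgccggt

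Cox8a: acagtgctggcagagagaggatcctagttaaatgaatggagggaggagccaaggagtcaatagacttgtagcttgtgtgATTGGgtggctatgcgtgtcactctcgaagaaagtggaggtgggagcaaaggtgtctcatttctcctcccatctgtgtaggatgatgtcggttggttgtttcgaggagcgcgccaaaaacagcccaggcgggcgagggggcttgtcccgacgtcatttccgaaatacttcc

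Ndufaf8: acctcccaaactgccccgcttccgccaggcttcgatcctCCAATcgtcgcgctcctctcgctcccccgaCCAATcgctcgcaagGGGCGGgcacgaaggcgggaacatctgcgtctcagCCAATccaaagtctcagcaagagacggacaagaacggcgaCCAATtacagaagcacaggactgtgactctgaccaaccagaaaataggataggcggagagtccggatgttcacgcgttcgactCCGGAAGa

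Cox5b: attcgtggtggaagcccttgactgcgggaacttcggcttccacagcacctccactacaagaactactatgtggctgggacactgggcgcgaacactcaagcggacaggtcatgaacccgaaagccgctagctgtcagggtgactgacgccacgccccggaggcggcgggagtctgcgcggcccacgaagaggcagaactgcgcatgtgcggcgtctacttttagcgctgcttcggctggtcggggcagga

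Cox6a1 held overlapping NRF1 matches on both strands, from 161 to 155 and from 160 to 154 bases before the start, SP1 motifs from 139 to 134 and from 44 to 39, a CCAAT match from 74 to 70 and the ETS motif from 16 to 10. Cox8a held a single CCAAT match from 171 to 167 bases before the start, read on the opposite strand. Ndufaf8 held 4 CCAAT matches, of which the nearest ran from 91 to 87, with an SP1 motif from 166 to 161 and the ETS motif from 8 to 2. No letters of the Cox5b window matched. CCAAT was the single motif that Cox6a1, Cox8a and Ndufaf8 shared, and it is common, in 33.8% of all 32851 promoters of this length and in 8 of the 18 windows of tested genes with an entry. The NRF1 motif was in 3.02% of all promoters and in 4 of the 18. Of these, Cox6a1 and Atp5l were above WT in both DKO libraries, and Atp5k and Cycs below it in both. The ETS motif was in 6.91% of all promoters and in 4 of the 18, SP1 in 32.7% and 7 of the 18, and YY1 in 4.49% and 0 of the 18. Ndufb6, which like Cox5b had DKO 1 lowest and DKO 2 highest, held ETS and SP1 matches. Cox5a, with that order too, held an SP1 match. The lack of matches in Cox5b thus did not extend to other genes with its order. A match describes letters and does not show that a factor bound there.

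The muscle isoforms of complex IV were low in all 3 libraries. Cox7a1 had 27.1 RPKM in DKO 1 and 24.4 in DKO 2, against 8.25 in WT. It was the gene whose DKO libraries lay closest together among those at least 2-fold above WT (log2 difference 1.53, SE 0.72, limma adjusted p = 0.999). It rested on about 326 reads in DKO 1 and 327 in DKO 2, against 158 in WT. Cox6a2 had 2.03 RPKM in DKO 1 and 1.29 in DKO 2, against 0.0935 in WT. With about 42 reads in DKO 1 and 30 in DKO 2, against 3 in WT, its ratio to WT was 21.7 in DKO 1 (95% exact binomial interval 7.1 to 112) and 13.8 in DKO 2 (4.43 to 73). A share of 10.3% of the exon bases of Cox6a2 lies in Itgad on the opposite strand, and its part in these values was not tested. Cox8b had 1.53 RPKM in DKO 1 and 5.56 in DKO 2, against 2.72 in WT, so it fell on either side. Relative to its common counterpart, Cox7a1 was 0.265% of Cox7a2 in DKO 1 and 0.198% in DKO 2, against 0.121% in WT. Cox6a2 was 0.0256% of Cox6a1 in DKO 1 and 0.0533% in DKO 2, against 0.011% in WT. Cox8b went the other way, at 0.0288% of Cox8a in DKO 1 and 0.448% in DKO 2, against 0.54% in WT.

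Heart muscle markers did not move in the same order as Cox7a1 and Cox6a2. The 18 heart genes listed apart from the Cox isoforms, 15 of them in the table, summed to 20.2 RPKM in DKO 1 and 151 in DKO 2, against 33.7 in WT. Tnnc1, cardiac troponin C, had 0.742 RPKM in DKO 1 and 39.0 in DKO 2, against 4.47 in WT. Of the 5 tested, 3, Tnnc1 among them, were below WT in DKO 1 and above it in DKO 2, against 19.4% of all transcripts. Actc1, cardiac actin, was above WT in both, where 32.1% of all transcripts were. It had 2.23 RPKM in DKO 1 and 20.8 in DKO 2, against 2.01 in WT. Of the 28 transcripts of these 15 genes, 20 were listed at 0 in all libraries, including those of Tnnt2, Myh6 and Nppa. The heart sum of DKO 1 was thus below that of WT, while Cox7a1 and Cox6a2 were above WT in DKO 1. Cox8b had the same order of libraries as that sum.

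ATP synthase was represented by 5 tested genes. Atp5k, subunit e, which helps the enzyme form dimers, had 7647 RPKM in DKO 1 and 8050 in DKO 2, against 12609 in WT. Both DKO libraries were below WT and close to each other, at 0.606 and 0.638 times WT (log2 difference -0.68, SE 0.61, limma adjusted p = 0.999). Atp5l, subunit g, which sits beside subunit e in the membrane, had 11584 RPKM in DKO 1 and 15067 in DKO 2, against 10172 in WT. These neighbours in the enzyme thus lay on opposite sides of WT, and neither passed. Atp5pb, subunit b of the peripheral stalk, had 310 RPKM in DKO 1 and 237 in DKO 2, against 342 in WT. Atp5a1, the alpha subunit of the catalytic head, had 103 RPKM in DKO 1 and 160 in DKO 2, against 137 in WT. Atp5g1 is one of several genes for subunit c of the rotor, and its tested transcript had 5.02 RPKM in DKO 1 and 1.20 in DKO 2, against 0.281 in WT. DKO 1 was the highest and WT the lowest. It rested on about 8 reads in WT, and its other transcript, under the level for testing, kept the same order with 0.899 RPKM in DKO 1 and 0.366 in DKO 2, against 0.206 in WT. The median log2 difference of the 5 was -0.14 in DKO 1 and 0.22 in DKO 2.

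Summed over its measured transcripts, complex IV without Ndufa4 came to 41748 RPKM in DKO 1 and 37750 in DKO 2, against 23365 in WT. Ndufa4 had 12963 RPKM in DKO 1 and 14934 in DKO 2, against 13082 in WT. It was left out of all sums given here for complex IV and complex I. Without Cox6a1, Cox8a and the muscle and testis isoforms the sums were 28478 RPKM in DKO 1 and 34067 in DKO 2, against 22001 in WT. Both sums had each DKO library above WT, and Cox7a2 and Cox7c made up most of the second. ATP synthase summed to 19649 RPKM in DKO 1 and 23516 in DKO 2, against 23261 in WT. The sums for complex I were 6259 RPKM in DKO 1 and 11819 in DKO 2, against 10482 in WT. In RPKM, each of these 2 had DKO 1 lowest and WT between the DKO libraries. The RPKM of all transcripts summed to 396262 in DKO 1 and 489056 in DKO 2, against 376412 in WT. As shares of these totals, complex I and ATP synthase were below WT in both DKO libraries, and both complex IV sums remained above it. The order of libraries for complex I and ATP synthase thus depends on scaling.

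Base composition moved with part of the pattern. The GC content of Cox6a1 (58.8%) and Cox8a (58.5%) was the highest among the 23 tested transcripts, whose median was 50.5% against 49.7% over all transcripts tested. Across the 23 genes, which share libraries, GC content and the log2 difference of DKO 1 from WT had a Pearson r of 0.53 and a Spearman rho of 0.33, and for DKO 2 the values were 0.62 and 0.66. Without Cox6a1 and Cox8a they were 0.30 and 0.12 for DKO 1 and 0.56 and 0.60 for DKO 2. Across the 2049 transcripts with a GC value, r was 0.07 and rho 0.01 for DKO 1, and r was 0.25 and rho 0.31 for DKO 2. Genes are not independent replicates, and these values are descriptions.

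Within a band of GC content from 55% to 60% the 6 genes of the respiratory chain and ATP synthase differed from WT by a median of 2.20 (log2) in DKO 1 and 1.06 in DKO 2, while all 376 tested transcripts of that band had 0.08 in DKO 1 and 0.47 in DKO 2. Cox4i1, with 57.6% GC, was in that band and was 0.401 times WT in DKO 1. A narrower set was chosen after its values were seen, namely the 14 transcripts of other genes with 58% to 60% GC and a mean of at least 100 RPKM. Their median was 1.33 in DKO 1 and 0.69 in DKO 2, 12 of 14 were above WT in both, and 0 of 14 reached Cox6a1 in DKO 1. With the trend on GC content removed from each library, an alternative also added after the data were seen, Cox6a1 differed from WT by 3.10 in DKO 1 and 1.12 in DKO 2, and Cox8a by 3.28 in DKO 1 and 0.93 in DKO 2. In DKO 1 the trend over all transcripts was close to none, so its removal could change little there, and in DKO 2 Cox8a then lay less than 2-fold above WT. The part of base composition in these differences was not tested further.

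**Figure D4:**
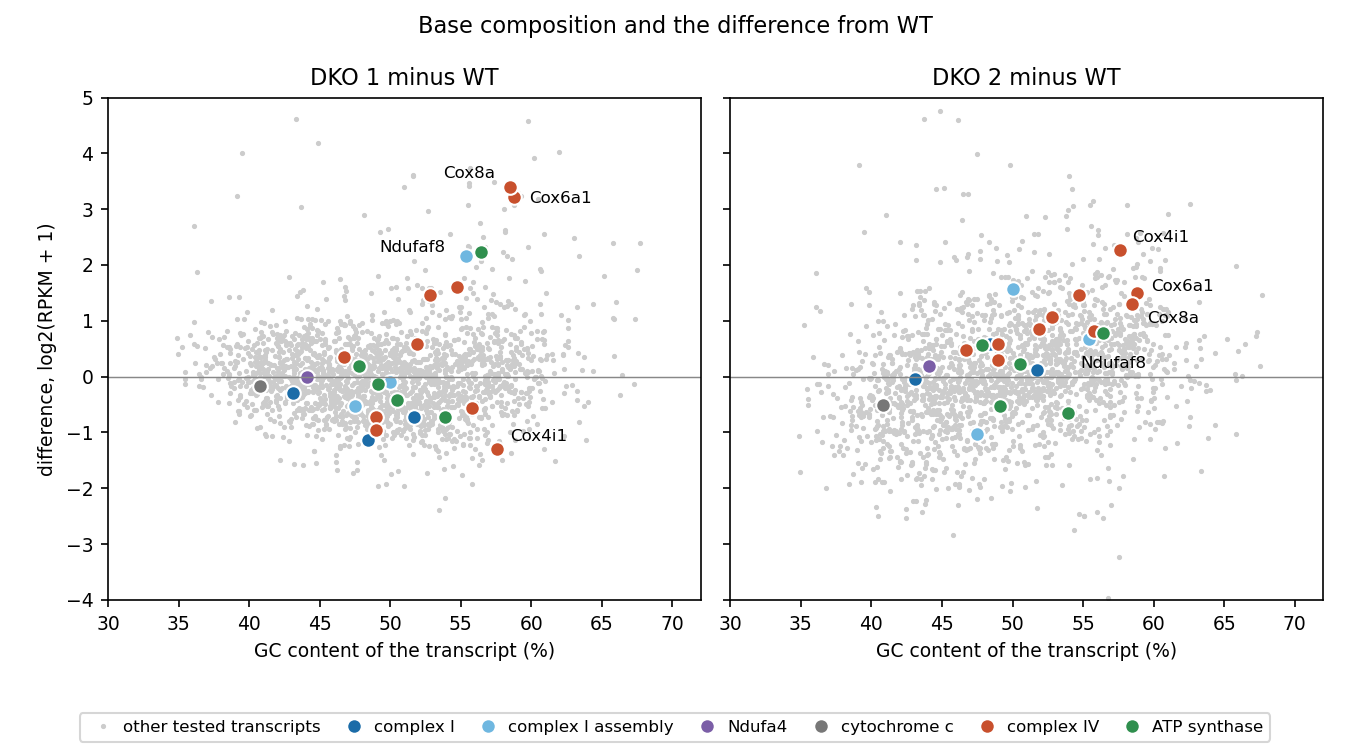
GC content of each tested transcript (horizontal, in percent) against its difference from WT on the log2(RPKM + 1) scale in DKO 1 (left) and DKO 2 (right), with the 23 genes coloured by complex and other transcripts in grey. Cox6a1 and Cox8a are the coloured points of highest GC content, and Cox4i1 at 57.6% lies below 0 in DKO 1 and above it in DKO 2.

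Other mitochondrial genes were described from lists named by function, and 0 of their tested transcripts passed limma. Among 8 tested assembly factors, which include the Ndufaf genes above, the median log2 difference was -0.32 in DKO 1 and 0.20 in DKO 2. Pet100, which helps to assemble complex IV, had 2085 RPKM in DKO 1 and 1876 in DKO 2, against 1030 in WT. Sdhaf1, which helps to assemble complex II, lay the other way, with 10.0 RPKM in DKO 1 and 15.8 in DKO 2, against 21.7 in WT. In the citric acid cycle and pyruvate dehydrogenase list, 5 of 7 tested were below WT in both DKO libraries, against 31% of all transcripts, and 0 above, against 32.1%, with medians of -0.61 in DKO 1 and -0.71 in DKO 2. Among them Mdh2, malate dehydrogenase, had 58.7 RPKM in DKO 1 and 83.4 in DKO 2, against 102 in WT. Suclg2 and Sucla2, subunits of succinyl-CoA ligase, had log2 differences of -0.75 and -0.65 over both DKO libraries. Pdha1, of pyruvate dehydrogenase, had 4.68 RPKM in DKO 1 and 4.74 in DKO 2, against 8.43 in WT. The citric acid cycle list was thus lower than the chain itself in both DKO libraries, a difference between lists that was not tested.

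Among 8 tested genes of protein import the median log2 difference was -0.25 in DKO 1 and 0.11 in DKO 2. Timm17b, a subunit of the inner membrane import channel, had 151 RPKM in DKO 1 and 28.0 in DKO 2, against 11.6 in WT. It had the same order of libraries as Cox6a1 and Cox8a at a GC content of 51.6% (log2 difference 2.40, SE 0.97, limma adjusted p = 0.999). Its paralog Timm17a had 165 RPKM in DKO 1 and 411 in DKO 2, against 487 in WT. The paralogs thus lay on opposite sides of WT.

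The 8 tested genes of the mitochondrial ribosome had medians of -0.24 in DKO 1 and 0.02 in DKO 2, with 2 of 8 above WT in both and 3 of 8 below, near the 32.1% and 31% of all transcripts. Of 5 tested regulators of mitochondrial gene expression, 2 were below WT in both, against 31% of all transcripts: Tfb2m, a mitochondrial transcription factor, had 4.28 RPKM in DKO 1 and 3.05 in DKO 2, against 8.89 in WT, and Pprc1, a coactivator, had 1.21 RPKM in DKO 1 and 1.16 in DKO 2, against 2.25 in WT. The 4 tested carriers and porins had medians of -0.36 in DKO 1 and 0.08 in DKO 2. The 5 tested genes of fatty acid oxidation had medians of 0.00 in DKO 1 and -0.38 in DKO 2, and Hadh, a dehydrogenase of that pathway, had 24.8 RPKM in DKO 1 and 30.4 in DKO 2, against 12.3 in WT. Among 8 tested antioxidant genes the medians were -0.26 in DKO 1 and 0.40 in DKO 2, and Cat, catalase, had 9.24 RPKM in DKO 1 and 10.9 in DKO 2, against 3.73 in WT. Hadh and Cat were above WT in both DKO libraries, with log2 differences of 1.10 and 1.23. Below WT in both were Acads, another dehydrogenase of fatty acid oxidation, at -0.21 in DKO 1 and -0.38 in DKO 2, the mitochondrial peroxiredoxin Prdx3 at -0.84 in DKO 1 and -0.40 in DKO 2, and the superoxide dismutase Sod1 at -1.24 in DKO 1 and -0.05 in DKO 2.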

How the data were processed

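Trizol was used to extract RNA and a Clontech SMARTer low-input kit to build the libraries, per the labels. The submitters' processing notes name cutadapt, TopHat2, HTSeq, edgeR and build mm10. Tool versions and order, annotation, transcript lengths and strand use were not given in the sources used. The authors deposited RPKM per RefSeq transcript, with 1 column per library. RefSeq (GRCm38.p6) named 16151 of the 16383 transcripts and GENCODE M21 a further 77. In all, 68% were listed at 0 in every library.

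Transcripts averaging 1 RPKM or more were tested as log2(RPKM + 1), which understates changes of low genes, with limma 3.58.1 in R 4.3.3 (two-sided, moderated with an intensity trend, Benjamini-Hochberg adjusted p under 0.05 over 2066 transcripts). The fit had 1 residual degree of freedom, from the 2 DKO libraries, and the spread of WT was taken to equal theirs. With so few libraries, a gene that missed the threshold is not shown to be unchanged.

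Length and GC content came from the GENCODE transcript paired with each RefSeq identifier. RPKM times length in kilobases gave the worth of 1 read as the step at which low values came closest to whole reads. Of values of 1 to 100 reads, 45.3% in DKO 1, 37.5% in DKO 2 and 45.4% in WT lay within 0.05 of a whole read, where 10% would by chance, so read numbers are approximate. The members and lists were chosen with earlier results of these data known. Named are all tested members. From the other mitochondrial lists, genes were picked among the up to 4 per list whose DKO libraries both lay furthest to one side of WT. Not all of those are named. Timm13 of the import list, with log2 differences of 0.83 in DKO 1 and 0.56 in DKO 2, was left out while Timm17a was named. Many of these genes have processed pseudogenes that could share reads.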

Additional observations from a re-analysis of the deposited data

How the results depend on the processing

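No paired analysis was possible with 1 WT library for 2 DKO libraries, and the label of the WT library carries no replicate number. No respiratory chain or ATP synthase gene passed limma under any of the 10 alternatives that could be tested, where the adjusted p of single genes was 0.142 or above. Over all transcripts the count of calls, 2 as reported, was 0 with TPM, 0 with no filter on low values (transcripts at 0 everywhere still left out), 0 with quantile normalization, 1 with a pseudocount of 5, 5 with median scaling, 6 with the GC trend removed, 10 with a filter at 5 RPKM and 13 with a pseudocount of 0.1. Rescaling to TPM moved the median of all transcripts to -0.22, and with it 9 members rather than 5 lay below WT in both DKO libraries. With the GC trend removed 2 members, Cox6a1 and Cox7a1, rather than 4 were at least 2-fold above WT in both. The shares of all transcripts given above, 31% and 3.87%, belong to the settings used for testing. Whether the members moved more than all transcripts under the alternatives was not tested.

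Among single genes Ndufa4 turned to -0.14 with TPM and -0.02 with quantile normalization, and Cox8b to -0.08 with TPM and -0.03 with the GC trend removed. Leaving out a DKO library gave ranges on both sides of 0 for 9 genes: -0.41 to 0.22 for Atp5a1, -1.30 to 2.27 for Cox4i1, -0.73 to 0.29 for Cox5a, -0.95 to 0.58 for Cox5b, -0.56 to 0.82 for Cox8b, -0.73 to 0.12 for Ndufa2, -0.01 to 0.19 for Ndufa4, -0.10 to 1.57 for Ndufaf6 and -1.13 to 0.58 for Ndufb6. These are values with no test, since 1 library a group remains, and the count of calls could not be had there. The cause of the other changes was not tested. With 1 WT library, what differs between WT lungs was not measured.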

Other observations

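Among the 211 tested transcripts that averaged 100 RPKM or more, 6 lay above WT by at least 3 on the log2(RPKM + 1) scale in DKO 1. They were Cox6a1, Cox8a, Ftl1, Gm5617, Id3 and Rabac1. Differences below WT were not counted, such as that of Sftpc, at -5.44 in DKO 1. This limit was chosen after the values were seen, so the list is a description with no test.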
